A study of Bos taurus with 28 samples.

Results

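The glands described are 2 of the 11 mammary biopsies of AA cows, called AA 2 and AA 9 here, among 28 biopsies in all. They are the AA arrays whose titles end in 33 and 43, and they were chosen from the measurements themselves. Their values spread over the probe sets by more than 2 times the SD of the median array, and the lipid droplet gene CIDEA lay below -2 log2. The study measured messenger RNA in mammary tissue of Holstein-Friesian cows in the middle of lactation that differed in DGAT1, the gene of an enzyme of the last step of triacylglycerol synthesis. All cows received a control diet, a mixed ration of silages and concentrates, and each cow gave 1 surgical biopsy and 1 array of amplified, biotin-labelled RNA. AA cows carry alanine on both DGAT1 alleles (11 glands), KA cows carry lysine and alanine (13 glands) and KK cows lysine on both alleles (4 glands). AA 2 and AA 9 were set against the 9 other AA glands, so that genotype was the same on both sides, and the 17 KA and KK glands served as separate glands for the only test.

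A lactating mammary gland consists of secretory alveolar epithelium, a contractile layer of myoepithelium around it, and a stroma of fibroblasts, vessels, fat and immune cells. The secretory cells make caseins, whey proteins, lactose and triacylglycerol, and they release lipid droplets wrapped in their own apical membrane, the milk fat globules. When milk is no longer removed, secretion stops and the epithelium is remodelled, a process called involution that is known for acute phase proteins, complement and macrophage genes.

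In CIDEA, a protein of lipid droplets needed for milk fat secretion, AA 2 had -4.82 and AA 9 -6.79, in log2 units against a baseline of the gene. The next lowest gland of all 28 was AA 4 at -1.49. AA 2 had an SD of 0.86 over its probe sets and AA 9 one of 0.78, while the median of the 28 arrays was 0.27 and the highest other gland was KA 5 at 0.35. These values define the pair and are given as a description. The milk fat content of individual cows was not analysed here, so the pair is named by its arrays and not as low in milk fat. Apart from their array numbers, the labels give AA 2 and AA 9 no property that the other AA cows lack. In whole tissue, fewer cells of a type and less RNA per cell cannot be told apart.

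**Figure D1:**
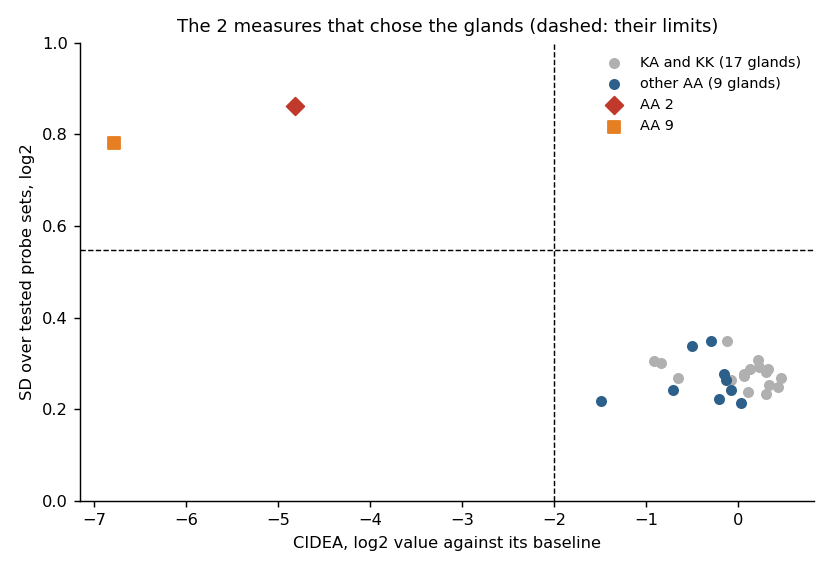
SD over all 24128 probe sets, controls included (vertical axis, log2), against the CIDEA value (horizontal axis, log2 against its baseline) for each of the 28 glands. The axis title speaks of tested probe sets. Grey points are KA and KK, blue points the other AA glands, and a diamond and a square AA 2 and AA 9. The dashed lines are the limits of the rule, and the other 26 glands lie at SDs of 0.21 to 0.35 and CIDEA values of -1.49 and above.

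Control probe sets on the arrays also differed in the pair. The 3′ minus 5′ difference of the GAPDH control, a measure of RNA integrity and labelling, was 1.33 log2 in AA 2 and -0.66 in AA 9. The other 26 glands ranged from -0.59 to 0.97, so the pair lay outside that range on opposite sides. The same difference for actin was -0.14 and -0.21, within the range of -0.28 to 0.46. The spiked controls of labelling and hybridisation were below 0 in both glands. The hybridisation control bioC was -0.71 in AA 2 and -1.26 in AA 9, and both lay below the lowest other gland at -0.66. Of the other hybridisation controls, bioB was -1.29, bioD -0.61 and cre -0.36 in AA 9, below all 26 other glands (lowest -0.89, -0.60 and -0.36, so only just for bioD and cre), while AA 2 lay within their range. All 4 labelling controls, dap, lys, phe and thr, lay below the 26 other glands in AA 2, at -1.04, -0.84, -1.23 and -1.88, and within their range in AA 9, at -0.40 to -1.08. The part of these differences in the results was not tested.

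In the values as deposited, the RNA of AA 2 and AA 9 held less of many milk fat and milk secretion genes than that of the other AA glands. It held more of many fibroblast, complement and myeloid genes and of some acute phase and keratin genes. A gene was counted as lower or higher in both when AA 2 and AA 9 both lay outside the range of the 9 other AA glands and each at least 1 log2, a factor of 2, from their mean. Of 9155 genes, 268 lay lower in both (2.93%) and 751 higher (8.2%), and these shares are the background for every list. The median difference of the pair from the 9 glands over all genes was 0.03 log2. Of these genes, 266 and 711 also lay outside the range of all 26 other glands. Bright genes, 2155 of the 9155, made up 125 of the 268 that lay lower and 174 of the 751 that lay higher. At a distance of 2 log2 or more the counts were 72 lower and 62 higher. With no size required, 1836 of the 9155 genes lay below the 9 glands in both and 2464 above. Since the pair was chosen for its spread, these counts are a description and carry no test.

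Normalization changes these counts. As deposited, 26.3% of the genes apart in both lay lower. Quantile normalization gives every array the same spread by construction, so it takes away the property the pair was chosen for, and it left 33 genes lower and 9 higher, or 78.6% lower. All 33 and all 9 were among the 268 and the 751. Of the genes counted as deposited, 180 of 268 and 292 of 751 still lay outside the range of the 9 glands on the same side in both after it, at any distance. GP2, CIDEA, LPO, MUC1, BTN1A1, MUC15, FABP3 and ACSS2 were among the 33, and TNFAIP6, NEFM, CFI, PLET1, CCL2 and HP among the 9. Every list median below kept its sign after quantile normalization, except that of the neutrophil markers, but most were smaller by a factor of 2 or more. Among the lists, 4 of 14 milk fat globule genes, 3 of 13 fatty acid uptake genes, 2 of 11 solute carriers and 1 gene each of milk protein, fatty acid synthesis, oxidative stress defence and adipocyte markers still counted as lower in both after it. Higher in both were 1 of 18 complement, 1 of 16 acute phase and 1 of 24 cytokine genes, and 0 in each other list, with 0 of 20 fibroblast, 0 of 15 macrophage and 0 of 13 luminal genes. The list counts and their order given below are those of the values as deposited. List means below the 9 glands in both went from 11 to 9 of 32 and those above from 13 to 2. For the milk fat globule genes the median went from -2.48 to -0.89, for fatty acid uptake from -1.74 to -0.70, for complement from 1.39 to 0.25 and for fibroblast markers from 1.55 to 0.38.

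Most genes at least 1 log2 away in both glands shared their direction when each gland had its own comparison group. AA 2, in the lower array numbers (29 to 42), was set against the 7 other AA glands there, and AA 9, in the upper numbers (43 to 56), against the 2 there, so that no gland served both. Of 9155 genes, a difference of at least 1 log2 was seen in 2155 for AA 2 and 1492 for AA 9. Both held 929 genes, of which 913 had the same direction (260 lower, 653 higher) and 16 opposite directions. The 913 genes are 42.4% of those of AA 2 and 61.2% of those of AA 9. The median of the milk fat globule genes, CIDEA included, was -2.31 in AA 2 and -2.69 in AA 9 in these separate comparisons. The same rule chose both glands, so their agreement is a description and no independent support.

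**Figure D2:**
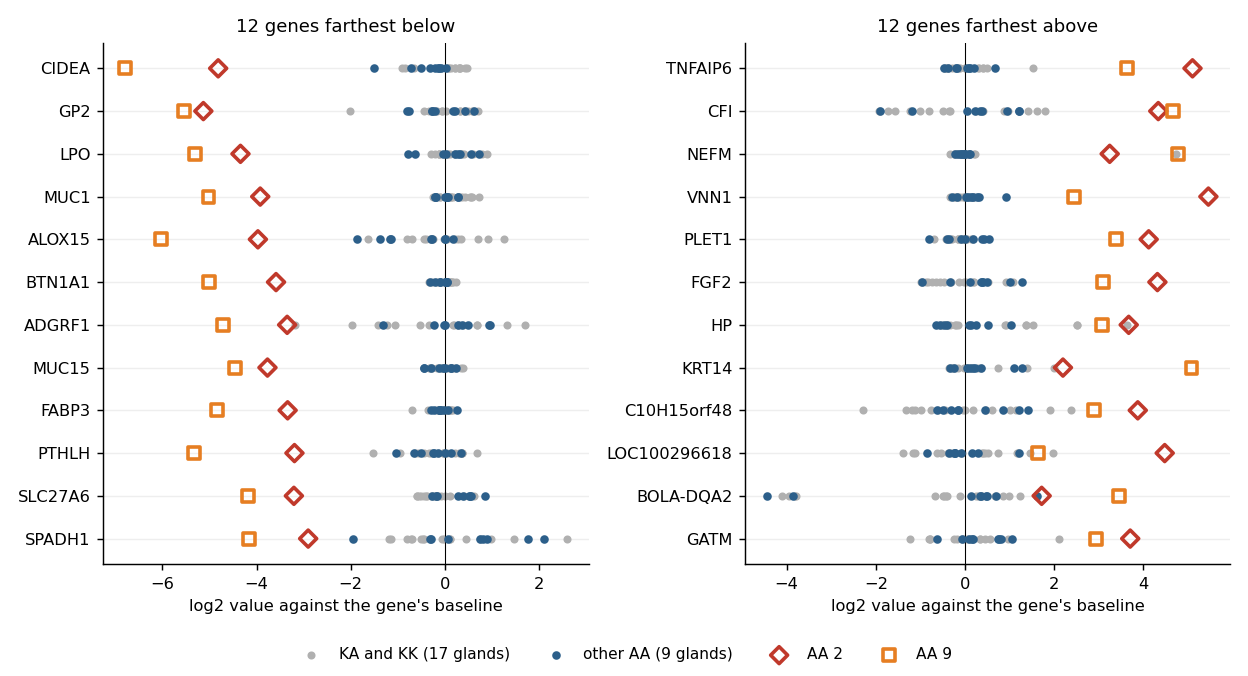
Log2 values against each gene's baseline for the 12 genes that lay farthest below (left) and the 12 farthest above (right) in the mean of the pair, with 1 point per gland. AA 2 (open diamonds) and AA 9 (open squares) lie apart from the 9 other AA glands (blue) in each gene, as the counting rule requires. The KA gland KA 5 lies close to them for NEFM and HP, at 4.74 and 3.62, and above AA 9 for LOC100296618, at 1.96.

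Genes of the milk fat globule and lipid droplet lay lowest of all lists. Of 14 measured genes, 8 lay lower in both and 1 higher, with a median difference of -2.48 log2. Their list mean was -2.03 in AA 2 and -2.36 in AA 9. The 9 other AA glands, at -0.30 to 0.12, did not overlap with them. CIDEA, which chose the pair, is 1 of the 8, and without it 7 of 13 lay lower, the median was -2.23 and the list means were -1.81 and -2.02 against -0.27 to 0.16. After CIDEA, the largest differences were in the membrane proteins of the globule. MUC1, a mucin of the apical membrane, was -3.92 in AA 2 and -5.02 in AA 9, against -0.22, 0.04 and 0.29 (lowest, median and highest of the 9), a mean difference of -4.49 log2 or 22.4-fold lower. BTN1A1, butyrophilin, which is needed for milk lipid secretion, was -3.59 and -5.02, against -0.31, 0.01 and 0.06, a difference of -4.24 or 18.9-fold lower. MUC15, another globule mucin, was -3.77 and -4.45, against -0.44, -0.03 and 0.24, or 16.2-fold lower, and its other probe sets differed by -4.49 and -0.91. In these 3 genes AA 9 lay below AA 2, and the 9 other glands stayed within a narrow band around 0. The members below, named after their values were seen, had smaller differences. XDH, xanthine dehydrogenase, which associates with butyrophilin in the globule membrane, differed by -2.23. PLIN2, the coat protein of lipid droplets, differed by -2.74, MFGE8, lactadherin, by -3.09, and the transporter ABCG2 by -3.29, but by only -0.37 in its other probe set. The member that lay higher was BSCL2, seipin, a protein of droplet formation at the endoplasmic reticulum, at 2.05 in AA 2 and 1.86 in AA 9, with the 9 at -0.39 to 0.64, but its other probe set went the other way, by -1.09.

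Genes that bring fatty acids into the secretory cell and activate them followed. Of 13 measured genes, 7 lay lower in both and 1 higher, with a median of -1.74 and list means of -1.28 and -2.07 against -0.29 to 0.10. FABP3, a fatty acid binding protein of the lactating epithelium, was -3.34 in AA 2 and -4.83 in AA 9, against -0.30, -0.09 and 0.26 in the 9, a difference of -4.02 or 16.2-fold lower. SLC27A6, a fatty acid transport protein, was -3.21 and -4.18, against -0.28, 0.38 and 0.86, or 15.7-fold lower. ACSS2, which activates acetate, the main carbon source of milk fat in ruminants, was -3.50 and -3.40, against -0.47, -0.12 and 0.49, or 10.4-fold lower. LPL, lipoprotein lipase, which releases fatty acids from blood lipoproteins, was -2.73 and -4.00, against -0.74, -0.06 and 0.22. All 4 genes were counted as lower in both, so by that rule the pair lay below the 9 glands without overlap. The acyl-CoA synthetase ACSL5 lay higher in both, by 1.65, and its relative ACSL1 differed by -1.39 without passing the rule in both. These 2 were named after their values were seen.

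In fatty acid synthesis and desaturation 3 of 12 genes lay lower in both and 1 higher (median -0.60). These were the central enzymes. FASN, fatty acid synthase, was -3.43 in AA 2 and -1.80 in AA 9, against -0.19, 0.00 and 0.28 in the 9, a difference of -2.67 or 6.36-fold lower. SCD, the stearoyl-CoA desaturase, was -1.84 and -3.44, against -0.32, -0.06 and 0.19. ACACA, acetyl-CoA carboxylase, was -2.97 and -1.81, against -0.55, 0.23 and 0.80. Here AA 2 lay below AA 9 in FASN and ACACA and above it in SCD. ELOVL5, an elongase of polyunsaturated fatty acids, lay higher in both by 1.79.

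In triacylglycerol synthesis 3 of 10 genes lay lower in both and 0 higher (median -0.50), all acyltransferases of the early steps. GPAT4 lay lowest, with -3.48 in AA 2, -2.05 in AA 9 and -0.33 to 0.74 in the 9, a difference of -2.87. GPAM, the mitochondrial glycerol-phosphate acyltransferase, differed by -2.00 and AGPAT1 by -1.60. DGAT1 itself, the gene the genotypes refer to, was -0.76 in AA 2 and 0.29 in AA 9, against -0.28, 0.05 and 0.56 in the 9. AA 2 lay below the 9 glands in DGAT1 and AA 9 within them.

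The sterol pathway was lower by a similar list mean in both glands. In cholesterol synthesis 5 of 14 genes lay lower in both and 0 higher, 13 of 14 differences were below 0, and the median was -1.03. The list mean was -0.99 in AA 2 and -1.05 in AA 9, and the lowest of the other glands, AA 10, had -0.49. NSDHL, an enzyme of sterol demethylation, was -1.24 and -1.47, against -0.57, 0.04 and 0.39 in the 9. MVD, which makes isopentenyl diphosphate from mevalonate, differed by -1.30, DHCR7, the enzyme of the last step, by -1.28 and PMVK, a mevalonate pathway kinase, by -1.28. HMGCS1, an early enzyme of the pathway named after its values were seen, was -0.83 and -1.64 against -1.50 to 0.48 in the 9, so AA 2 lay within their range. Among 16 regulators of lipid synthesis 2 lay lower in both and 0 higher (median -0.62). They were INSIG1, an anchor of sterol regulation, which differed by -2.42, and SREBF1, the transcription factor of lipid synthesis genes, which differed by -1.44 and by -1.76 to -0.48 in its other probe sets.

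Milk protein genes lay lower in all 9 measured members, with a median of -1.07, but only 2 by enough in both glands to be counted. LPO, lactoperoxidase, an antibacterial milk enzyme, was -4.34 in AA 2 and -5.32 in AA 9, against -0.78, 0.22 and 0.73 in the 9, or 30.0-fold lower. GLYCAM1, a mucin-like whey protein, was -1.50 and -3.36, against -0.26, 0.00 and 0.05. The caseins and whey proteins, named after their values were seen, lay closer. CSN1S1 was -0.60 in AA 2 and -1.08 in AA 9, and the mean difference was -0.86 for CSN1S1, -0.91 for CSN1S2, -0.76 for CSN2 and -0.81 for CSN3. PAEP, beta-lactoglobulin, differed by -1.07, and LALBA, the lactalbumin subunit of lactose synthase, by -1.25. In these 6 genes AA 9 lay below AA 2, and in CSN3 AA 2 was within the range of the 9. These genes give very bright signals in lactating tissue, and how near they are to the top of the array's range cannot be read from the deposited values.

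The supply of lactose precursors and solutes lay lower as well. In lactose synthesis and glucose supply 2 of 9 genes lay lower in both and 0 higher (median -1.07). SLC2A1, the main glucose transporter of the gland, was -1.43 in AA 2 and -1.80 in AA 9, against -0.33, 0.03 and 0.15 in the 9, and UGP2, which makes UDP-glucose, differed by -1.08. B4GALT1, the galactosyltransferase of lactose synthase, named after its values were seen, was -1.10 and -2.63 with the 9 glands at -1.00 to 0.54. Among solute carriers 5 of 11 lay lower in both and 0 higher (median -0.92). SLC34A2, a phosphate transporter, differed by -2.54, SLC7A5, a transporter of large neutral amino acids, by -2.49, SLC39A8, a metal ion transporter, by -2.48 and SLC1A5, a glutamine transporter, by -1.99.

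In prolactin, growth hormone and insulin-like growth factor signalling 3 of 16 genes lay lower in both and 0 higher (median -0.45). IGF1 was -1.85 in AA 2 and -1.90 in AA 9, against -0.35, -0.13 and 0.28 in the 9, with its 3 other probe sets between -0.89 and -0.12. STAT5B, a transcription factor that carries the prolactin and growth hormone signal, differed by -1.73, and ELF5, a transcription factor of alveolar differentiation, by -1.20. The list mean was -0.68 in AA 2 and 0.09 in AA 9, so the pair did not share a shift of the whole list. IGF2 and IGFBP3, named after their values were seen, were high in AA 9 at 2.57 and 2.73 and were -0.89 and 0.67 in AA 2. In the unfolded protein response and secretion list 0 of 16 genes were counted in either direction (median -0.44). The largest values were CALR, a calcium-binding chaperone of the endoplasmic reticulum, at -2.00 in AA 2 and -0.10 in AA 9, and SEC61A1, of the protein channel there, at -1.25 and -0.60.

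**Figure D3:**
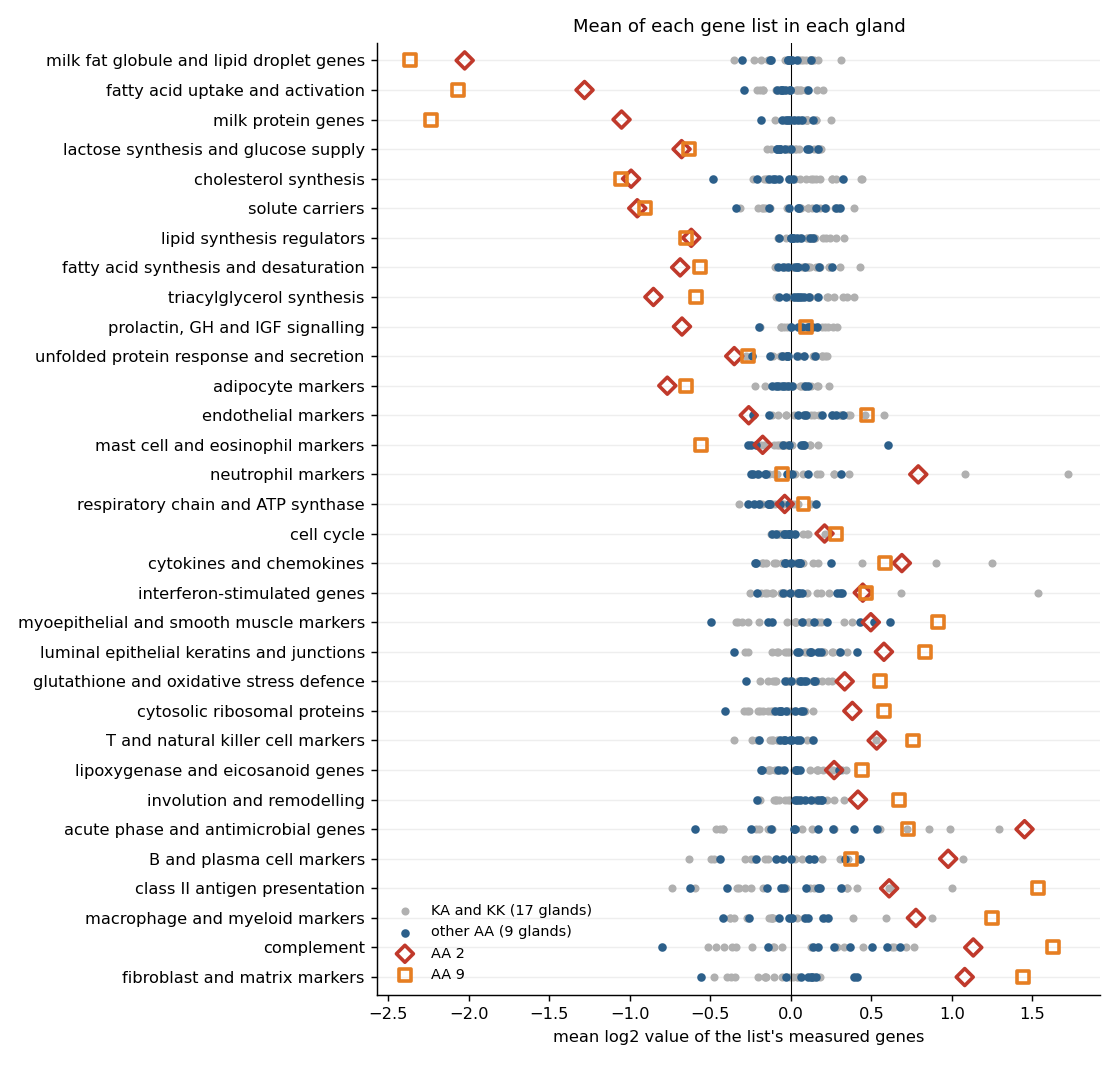
Mean log2 value of the measured genes of each of 32 lists (vertical axis, ordered by the median difference of the pair) in each gland, with AA 2 and AA 9 as open diamonds and squares, the 9 other AA glands in blue and the 17 KA and KK glands in grey. The pair lies below all 9 other AA glands in 11 lists and above them in 13, and it lies outside all 26 other glands in 10 and 7 lists, while after quantile normalization the counts against the 9 are 9 and 2.

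Other genes among the 12 that lay farthest below belonged to none of the lists described so far, and ALOX15 returns in lists described below. GP2, a membrane glycoprotein known from secretory granules, was -5.13 in AA 2 and -5.54 in AA 9, against -0.80, -0.20 and 0.63 in the 9, or 37.9-fold lower. ALOX15, a lipoxygenase that oxidises polyunsaturated fatty acids, was -3.97 and -6.03, against -1.86, -0.29 and 0.18, or 20.3-fold lower. PTHLH, the parathyroid hormone-related protein through which the lactating gland acts on calcium, was -3.19 and -5.33, against -1.03, -0.22 and 0.34, or 16.0-fold lower. The adhesion receptor ADGRF1 was -3.35 and -4.70, with a wider spread of -1.32 to 0.97 in the 9 and the KA gland KA 7 at -3.17. SPADH1, a spermadhesin, was -2.90 and -4.17 against -1.95 to 2.11. The pair was below all 26 other glands in each of these 5 genes.

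Luminal keratin and junction genes lay on both sides of the other glands. Of 13 genes 5 lay higher in both and 0 lower, 7 differences were above 0 and 6 below, with a median of 0.43 and list means of 0.58 and 0.84 in the pair against -0.36 to 0.41. KRT18, a keratin of luminal cells, was 2.32 in AA 2 and 2.98 in AA 9, against -1.24, 0.41 and 1.15 in the 9, or 4.96-fold higher. CDH1, E-cadherin of epithelial junctions, was 2.49 and 1.85, against -0.74, 0.20 and 0.66. KRT7, another luminal keratin, differed by 1.51 and EPCAM, an epithelial adhesion molecule, by 1.37, both counted as higher. CDH1's other probe set differed by 0.66. KRT8, the partner of KRT18, lay among the dim probe sets and was 0.12 and -0.39, which is not apart. After quantile normalization the median of this list was 0.06.

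Markers of myoepithelium and smooth muscle did not move as a whole. Of 12 genes 2 lay higher in both and 0 lower (median 0.38), and the pair overlapped with the other glands in the list mean, where AA 5 had 0.61. The counted genes were the basal keratins. KRT14 was 2.19 in AA 2 and 5.08 in AA 9, against -0.34, 0.19 and 1.27 in the 9, or 10.1-fold higher, and KRT5 differed by 1.09, with 0.27 in its other probe set. The contractile genes ACTA2 and CNN1, named after their values were seen, differed by 0.44 and -0.19 and were not apart.

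The genes farthest above the other glands came from several functions. TNFAIP6, a hyaluronan-binding protein induced in inflammation, was 5.10 in AA 2 and 3.64 in AA 9, against -0.47, 0.03 and 0.67 in the 9, or 20.9-fold higher, and its other probe set differed by 2.57. NEFM, a neurofilament protein with a dim probe set, was 3.24 and 4.77, against -0.23, -0.05 and 0.11. KA 5 alone of the other glands was as high, at 4.74. VNN1, a pantetheinase, was 5.46 and 2.45, against -0.30, 0.13 and 0.92, with a difference of 1.86 in its other probe set. In each of these 3 genes the 9 other AA glands lay between -0.47 and 0.92. PLET1, an epithelial surface protein, differed by 3.76 and by 1.61 in its other probe set, FGF2, a fibroblast growth factor, by 3.41 with 0.57 in its other probe set, and GATM, an enzyme of creatine synthesis, by 2.97. C10H15orf48 differed by 3.14. LOC100296618 differed by 3.10, with 4.48 in AA 2, 1.64 in AA 9 and 1.96 in KA 5.

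Fibroblast and matrix markers had the highest share of genes counted as higher in both, as deposited. Of 20 measured genes 11 lay higher in both and 0 lower, with a median of 1.55 log2. AA 2 had a list mean of 1.08 and AA 9 of 1.44, above the 9 at -0.56 to 0.41, which is also the range of all 26 other glands. COL1A2, a chain of fibrillar collagen I, was 1.77 and 2.33, against -0.68, 0.13 and 0.65 in the 9, or 3.88-fold higher, and its other probe set differed by 1.42. MFAP5, a microfibril protein, was 1.70 and 2.32, against -0.30, 0.07 and 0.62. DPT, dermatopontin, was 2.00 and 2.41, against -0.99, 0.56 and 0.87. POSTN, periostin, a matrix protein, was 1.59 and 2.04, against -0.92, -0.11 and 1.27. All 4 were counted as higher in both, so by that rule the pair lay above all the other AA glands. COL6A2, PDGFRB and THY1, named after their values were seen, did not share this, with differences of -1.03, -0.54 and 0.13.

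Complement genes lay higher in 8 of 18 and lower in 0 (median 1.39). CFI, the protease that inactivates complement fragments, was 4.33 in AA 2 and 4.65 in AA 9, against -1.91, 0.34 and 1.22 in the 9, or 20.4-fold higher. The activator CFB was 2.72 and 2.72, against -1.00, 0.58 and 2.00, with the KA gland KA 2 higher at 2.94, and CLU, clusterin, a chaperone known from involution, was 2.33 and 3.15 against -2.17, 1.06 and 1.46. C1QB, a subunit of the recognition complex C1q, differed by 2.05. The 9 glands themselves spread widely in CFI, CFB and CLU. The central component C3, named after its values were seen, was -0.20 in AA 2 and 0.57 in AA 9, within the range of the 9 at -2.23 to 1.48.

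In the acute phase and antimicrobial list 5 of 16 genes lay higher in both and 0 lower (median 0.88). HP, haptoglobin, was 3.67 in AA 2 and 3.06 in AA 9, against -0.65, 0.09 and 1.04 in the 9, or 10.4-fold higher, and the highest other gland was KA 5 at 3.62. CHI3L1, a chitinase-like secreted protein, was 2.83 and 3.42, against -3.22, 0.95 and 1.89, and KA 2 was higher at 3.70. S100A12, a neutrophil protein, differed by 2.36, with KA 5 at 4.01, and CP, ceruloplasmin, by 2.20, with 0.33 and 0.63 in its other probe sets and KA 5 at 1.29 above AA 9 at 1.15. The list mean was 1.45 in AA 2 and 0.73 in AA 9, above the 9 glands at -0.60 to 0.53 but not above KA 5 at 1.29 in both. SAA3, an acute phase protein of the mammary gland, named after its values were seen, was 2.03 and 2.21 against -1.72 to 2.02.

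Genes of eicosanoid metabolism, cytokines and interferon response gave mixed values. Of 14 lipoxygenase and eicosanoid genes 5 lay higher and 1, ALOX15, lower in both (median 0.68). The prostaglandin E synthase PTGES differed by 1.75, LTA4H, a leukotriene hydrolase, by 1.80, with KA 2 at 1.46 just above AA 9 at 1.44, and ALOX5AP, the activator of 5-lipoxygenase, by 1.74. Of 24 cytokines and chemokines 4 lay higher and 0 lower (median 0.25). CCL2, a chemokine for monocytes, was 3.52 in AA 2 and 1.55 in AA 9, against -0.90, -0.58 and 0.28 in the 9, with 2.50 in its other probe set, and KA 5 at 2.47 and KK 4 at 1.68 lay above AA 9. CXCL5, a chemokine for neutrophils with a dim probe set, differed by 2.70, with KA 5 at 3.78 above both glands. IL18, an epithelial and myeloid cytokine, differed by 2.52 and CXCL12, a stromal chemokine, by 1.40. IL1B, IL6, TNF and CXCL8, named after their values were seen, differed by -0.15, -0.06, -0.30 and 0.13. Of 13 interferon-stimulated genes 1 lay higher, the antiviral RSAD2 by 1.28, with KA 8 at 2.69 above both glands, and 1 lower, IFIT2 by -1.21 (median 0.27).

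Several immune cell markers lay higher in the pair. Of 15 macrophage and myeloid markers 7 lay higher and 1 lower in both (median 1.15), with list means of 0.78 and 1.25 against -0.42 to 0.23 in the 9 and 0.88 in KK 4, the highest of the 17 KA and KK glands. TYROBP, a signalling adaptor of myeloid cells, was 1.85 in AA 2 and 1.90 in AA 9, against -0.88, 0.12 and 0.43 in the 9, and AIF1, a macrophage protein, differed by 1.94. CD14, a lipopolysaccharide receptor named after its values were seen, was the marker that lay lower, by -1.41. Of 11 genes of class II antigen presentation 4 lay higher and 0 lower (median 1.02). BOLA-DRA, the alpha chain of the class II molecule DR, was 1.20 and 2.25, against -0.48, 0.18 and 0.53. BOLA-DQA2 was 1.72 and 3.44, but it lay at -4.44 in AA 4 and -3.86 in AA 7, and its other probe sets differed by -0.27 to 1.79, so its difference of 3.05 rests in part on those glands. DQ genes are highly variable between animals, and the share of signal that a cow's own sequence sets was not tested.

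Of 20 T and natural killer cell markers 3 lay higher in both and 0 lower (median 0.62). CD247, CD8A and CD3G, all parts of the T cell receptor complex or its coreceptor, differed by 1.98, 1.97 and 1.94. CD8A was 1.77 in AA 2 and 1.96 in AA 9, against -0.44, -0.09 and 0.12 in the 9. CD4, named after its values were seen, differed by -0.83. Of 9 B and plasma cell markers 2 lay higher and 0 lower (median 1.00), BLNK, a signalling adaptor of B cells, by 1.71 and JCHAIN, the joining chain of secreted antibodies, by 1.51. The list mean of the B and plasma cell markers was 0.98 in AA 2 and 0.38 in AA 9, which lay within the 9 at -0.44 to 0.43. KK 4 was above both glands at 1.07. Of 7 neutrophil markers 1 lay higher, S100A12, and 0 lower, with a median of -0.0044. Of 6 mast cell and eosinophil markers 1 lay lower, ALOX15, which is also a gene of epithelium, and 1 higher, the receptor KIT by 2.51, while KIT's 3 other probe sets ranged from -0.30 to 0.49 (list median -0.06). KIT is also made by luminal progenitor cells.

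Of 22 involution and remodelling genes 5 lay higher and 1 lower in both (median 0.72). Besides CLU, TIMP2, an inhibitor of matrix proteases, was 1.62 in AA 2 and 1.97 in AA 9, against -0.13, 0.05 and 0.26 in the 9. CTSS, a cathepsin of antigen-presenting cells, differed by 1.60, and CTSL, another cathepsin, was the gene that lay lower, at -1.80 and -2.47 against -0.77 to 1.35. Named after their values were seen, STAT3, the factor that drives involution, was 0.69 and 1.28 against -0.32 to 0.36, above the 9 glands but by less than 1 log2 in AA 2. IGFBP5, an involution gene, was -1.34 and -0.26, and SOCS3, a target of STAT3, was -0.33 and 0.00.

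General cell functions differed by less. Ribosomal proteins had a pair mean above the mean of the 9 in 45 of 48 genes, with a median difference of 0.55, but only 2, RPS21 by 1.30 and RPL34 by 1.20, by enough to be counted, and 0 lay lower. AA 2 had a list mean of 0.38 and AA 9 of 0.58, above the 9 at -0.41 to 0.08. In the respiratory chain 0 of 33 genes were counted (median 0.17), with COX6C, a subunit of cytochrome oxidase, at 0.89 and 0.70 and SDHD, of succinate dehydrogenase, at 0.87 and 0.87. Of 24 genes of glutathione and oxidative stress defence 3 lay higher and 1 lower (median 0.49). HMOX1, haem oxygenase, differed by 1.55, the redox protein TXN by 1.55 and the quinone reductase NQO1 by 1.29, while GSS, glutathione synthetase, differed by -2.13. Of 22 cell cycle genes 2 lay higher and 0 lower, the replication helicase subunit MCM6 by 2.03 and TYMS, thymidylate synthase, by 1.59, and TYMS differed by 0.0016 in its other probe set. The median of the cell cycle list was 0.24, and -0.094 without dim probe sets.

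Fat cell and vessel markers held 0 genes counted as higher in both. Of 10 adipocyte markers 2 lay lower and 0 higher in both (median -0.25), GPD1, glycerol-phosphate dehydrogenase, by -3.34 and the fatty acid binding protein FABP4 by -2.84. Both are also genes of lipid metabolism, and the cells their RNA came from were not tested. The adipocyte list mean was -0.77 in AA 2 and -0.65 in AA 9, below all 26 other glands (lowest -0.22). The defining markers ADIPOQ and LEP, named after their values were seen, differed by -0.27 and -0.23 and lay among the dim probe sets. Of 12 endothelial markers 0 were counted in either direction (median -0.22). Their list mean was -0.26 in AA 2 and 0.47 in AA 9. LYVE1, of lymphatic vessels, was 0.70 and 2.13 against -0.42 to 0.40, and CLDN5, of tight junctions, was 0.82 and 1.60.

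**Figure D4:**
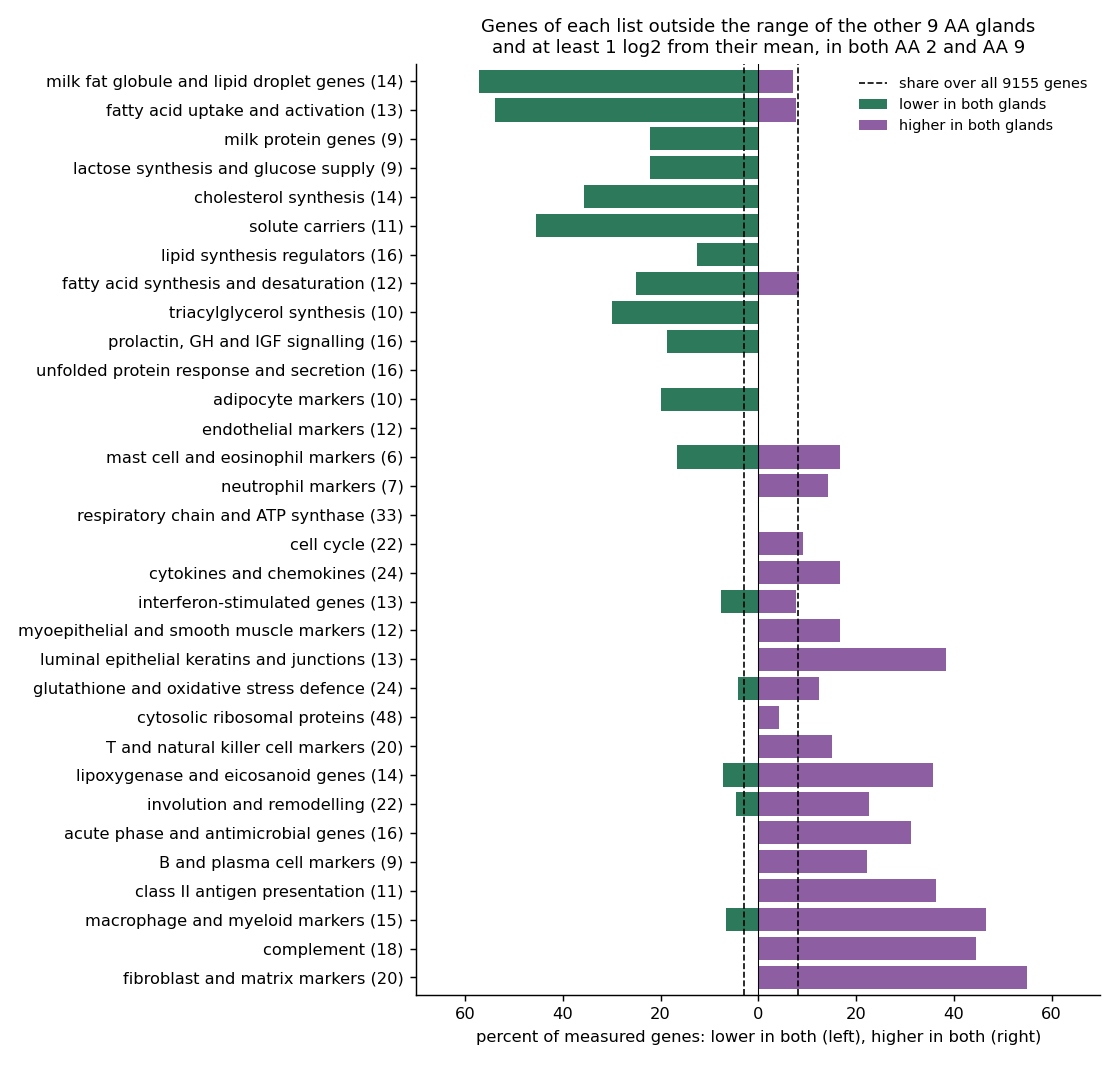
Percent of the measured genes of each list (number in brackets) that lay lower in both AA 2 and AA 9 (bars to the left) or higher in both (bars to the right), with dashed lines at the shares over all 9155 genes, 2.93% and 8.2%. The bars to the left are longest for milk fat globule genes, fatty acid uptake and solute carriers, and those to the right for fibroblast, macrophage and complement genes.

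The glands AA 2 and AA 9 also differed from each other. Their values were at least 1 log2 apart in 950 of 9155 genes and at least 2 log2 apart in 73, KRT14, VNN1 and IGF2 among them. A stricter rule counted genes in which 1 gland lay at least 2 log2 outside the range of the 9 other AA glands while the other gland lay within it, and there were 9, or 138 at a distance of 1 log2. In AA 2 alone LAP, an antimicrobial peptide of epithelium, was high at 5.04 against 1.15 in AA 9, VNN2, a relative of VNN1, at 4.25 against 0.02, and EAF2, a factor of transcription elongation, at 2.32 against -0.003. In AA 9 alone PIGR, the receptor that carries antibodies into milk, was low at -3.24 against -0.44 in AA 2, and F2RL1, a protease-activated receptor, at -2.88 against -0.28. GPX3, a secreted glutathione peroxidase, was high in AA 9 at 3.66 against 0.16 and NTRK2, a neurotrophin receptor, at 2.99 against 0.74. KCNE2, a potassium channel subunit with a dim probe set, was high there at 2.75 against -0.32. BOLA-DQB1 was 3.60 in AA 9 and 0.45 in AA 2, and the lowest of the 9 glands had -4.35. After quantile normalization 2 genes met this rule.

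Whether the genes of the pair follow CIDEA in other glands was tested in the 17 KA and KK glands. None of them entered the differences of the pair from the 9 other AA glands. They did enter the ranges over all other glands and the median SD that the rule used. The slope of each probe set's log2 value on the CIDEA value of the same gland was fitted with limma, with genotype as a factor and adjustment over 24015 probe sets. CIDEA spans a far smaller range there, and its lowest values are -0.91 in KA 2, -0.84 in KA 13 and -0.66 in KK 4. Upward 1 probe set passed (0.00416%) and downward 1 (0.00416%). The upward one has no gene symbol and had a slope of 0.95 log2 per log2 of CIDEA (SE 0.14, limma adjusted p = 0.0314). The downward one, a probe set of CD38, a surface enzyme of immune cells, had a slope of -1.13 (SE 0.17, limma adjusted p = 0.0314). The other probe set of CD38, which stands for the gene here, had -0.64 and did not pass, and in the pair it was -0.75 and -0.55, below the 9 glands. Without KK 2, without KK 4, or without KA 2, KA 13 and KK 4 together, neither probe set passed. None of the 9154 genes passed, while 511 upward and 558 downward slopes had an unadjusted limma p under 0.05.

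The signs of the slopes were counted as a description. Of 267 genes that lay lower in the pair, 230 had a slope above 0 on CIDEA (86.1%), and of 751 that lay higher 63 did (8.39%), against 49.2% of all genes. This depends on the gene used. With XDH in place of CIDEA the shares turned to 32.2% and 79.5%, although XDH lay lower in the pair as well. With MUC1, BTN1A1, MUC15, ABCG2, MFGE8 and PLIN2, tried after that was seen, they lay at 85.0% to 91.8% and 3.99% to 10.1%. The value of XDH was 0.43 in KA 2, 0.01 in KA 13 and -0.12 in KK 4, and its lowest values were -0.30 in KA 8 and -0.21 in KA 7. The cause of the turn with XDH was not tested. Genes within a gland share the same array and are no independent replicates, so these shares carry no test.

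**Figure D5:**
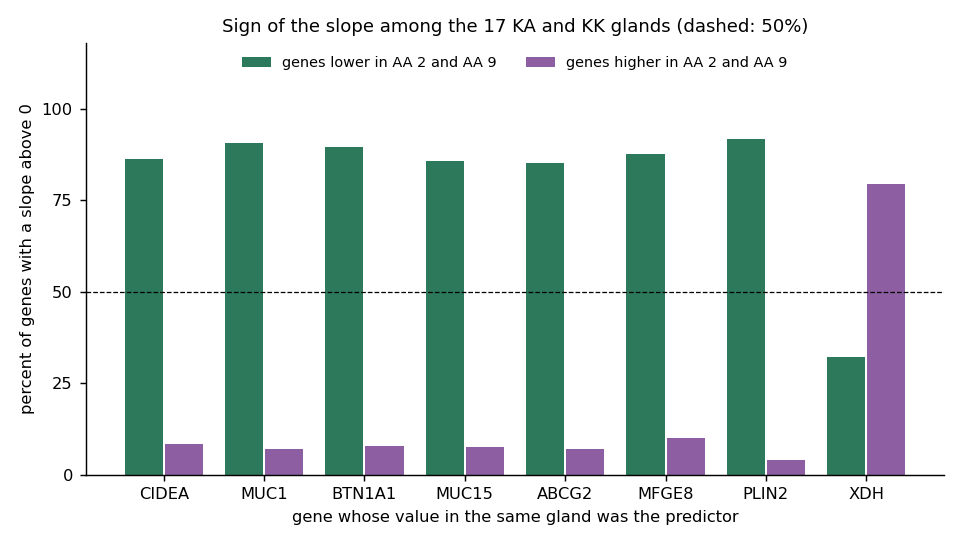
Percent of the genes lower (green) and higher (purple) in AA 2 and AA 9 that had a slope above 0 among the 17 KA and KK glands, for each of 8 globule genes used as the predictor. With CIDEA the shares are 86.1% and 8.39%, and with XDH alone of the 8 they turn to 32.2% and 79.5%.

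Single members gave slopes in both senses. Over all genes 49.2% of the slopes lay above 0. In the globule list 12 of 13 genes had a slope above 0 and in cholesterol synthesis 14 of 14, with medians of 0.19 and 0.27. In complement 15 of 18 and in the macrophage list 12 of 15 had a slope below 0, with medians of -0.61 and -0.57. Some other lists did not go with the pair in this way. Slopes above 0 numbered 5 of 9 in lactose synthesis and glucose supply and 6 of 10 in triacylglycerol synthesis. They numbered 7 of 16 in the unfolded protein response and secretion list and 8 of 12 among myoepithelial and smooth muscle markers. BTN1A1 had a slope of 0.26 (SE 0.09, limma adjusted p = 0.369) and CFI of -1.78 (SE 0.52, limma adjusted p = 0.369), and neither passed. Some of the genes farthest apart in the pair had slopes near 0, with GP2 at -0.08 (SE 0.32), LPO at -0.07 (SE 0.18), TNFAIP6 at 0.02 (SE 0.26) and KRT14 at 0.02 (SE 0.34). Fibroblast markers had a median slope of -0.21, with 15 of 20 below 0. The genes with the smallest p after CD38 were PRR15L at -1.27 (SE 0.24), the transcription factor ETS2 at -0.77 (SE 0.16), SCIN, an actin-severing protein, at -1.39 (SE 0.29), and the scavenger receptor gene CD163L1 at 0.44 (SE 0.09). Then came the acute phase protein LBP at -1.58 (SE 0.34), RGS10 at -0.68 (SE 0.15), the transcription factor KLF15 at 0.53 (SE 0.12), SERPING1, the C1 inhibitor, at -0.99 (SE 0.22) and SOD2, a mitochondrial dismutase, at -1.48 (SE 0.34). None of these passed (limma adjusted p from 0.265 to 0.323 with CD38). Of these 9 besides CD38, 7 were among the genes apart in both glands of the pair, each with the opposite sign to its slope. Over all 9155 genes 1019 were apart in both.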

How the data were processed

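RNA of 28 mammary biopsies, 1 per cow, was measured on Affymetrix Bovine Genome Arrays, 1-colour arrays of short probes. The deposited log2 values were made by the authors with Bioconductor 2.7 in R 2.13, per the labels' protocols. The submitters' processing notes name both RMA and GCRMA, and the source of the deposited values among them is unknown. They lie around 0, which means that each probe set had lost a baseline in a step no source describes. Absolute levels and signal over background are therefore lost, and values of different genes cannot be set against each other. No sequence or coordinate is printed, since none was used here.

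Of 24128 probe sets 112 were controls. Of the 24016 others, 13292 had 1 gene symbol in the platform annotation, 86 several and 10638 none, and 13263 symbols were found among RefSeq genes (ARS-UCD2.0). A coarse level class (bright from 8 log2, dim below 4) was read from the rounding steps of the values. Where several probe sets named 1 of the 9155 genes, the one in the brightest class was kept, with ties settled by the plainest type and then by identifier. Of 428 other probe sets of genes apart in both glands, 302 had the same direction.

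AA 2 and AA 9 were compared with the other 9 AA arrays by range, without a test, because they were chosen from their values. The number of arrays limits the precision. Slopes on CIDEA were fitted in R 4.3.3 by lmFit and eBayes of limma 3.58.1 (genotype as a factor, Benjamini-Hochberg adjustment over probe sets, threshold 0.05) in the 17 KA and KK arrays. Scripts were tested on simulated data. The members, the 32 gene lists and the tests were chosen with earlier results of these data known, so a list's direction is no independent support.

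Named genes were CIDEA, ALOX15 and CFI, the 12 lowest and 12 highest, up to 4 members of each list by size, up to 6 per direction of those apart in 1 gland, and the 10 smallest p of the slopes. Others are marked as named after their values were seen. Alternatives were quantile normalization, centring, other reference arrays, the mean over probe sets, leaving out dim probe sets or single arrays, other sizes, and for the slope other arrays, terms and predictors. Array numbers come from the titles, which do not say what they mark.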

Additional observations from a re-analysis of the deposited data

Results flagged for a closer look

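Among the 9 other AA glands, 23 of 146 list means and genes had 1 gland whose gap to the nearest other gland exceeded Dixon's 95% critical value, which chance alone gives in about 1 in 20 groups. AA 1 was low in most of them. Its list means were -0.19 for prolactin, growth hormone and insulin-like growth factor signalling, -0.36 for luminal keratins and junctions, -0.21 for involution, -0.28 for oxidative stress defence, -0.41 for ribosomal proteins and -0.56 for fibroblast markers. Its genes were CHI3L1 at -3.22, CLU at -2.17, CXCL12 at -1.49, KRT18 at -1.24, DPT at -0.99, TYROBP at -0.88, MCM6 at -0.47 and RPL34 at -0.46. In each of these AA 1 lay on the side away from AA 2 and AA 9, except in the signalling list, where AA 2 lay below it.

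AA 5 was low in the mean of fatty acid uptake at -0.29, on the side of the pair, and high in eicosanoid genes at 0.30 and mast cell and eosinophil markers at 0.61. AA 4 was low in CIDEA at -1.49 and high in DHCR7 at 0.57. AA 6 was low in GLYCAM1 at -0.26 and SLC1A5 at -0.46. AA 11 was high in COX6C at 0.46 and SEC61A1 at 0.81.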

How the results depend on the processing

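The 268 and 751 genes lower and higher in both became 33 and 9 after quantile normalization, 1836 and 2464 with no size required, and 72 and 62 at 2 log2, and over single AA arrays left out they ranged from 255 to 714 and from 692 to 1361, with the highest counts where AA 2 or AA 9 was left out (426 and 1231 without AA 2, 714 and 1361 without AA 9). Centring the arrays gave 239 and 821. List means above the 9 glands numbered 13, and 2 after quantile normalization and 7 against all 26 arrays. The 9 genes apart in 1 gland became 2 after quantile normalization and 138 at 1 log2. Of 513 recomputed list medians 426 moved by less than the SD of the 9 glands, 86 by more, and 1 with the pair outside the 9 changed sign (cell cycle, -0.094 without dim probe sets). Of 1821 recomputed differences of named genes 229 moved by more than that SD, and no gene apart in both changed sign.

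The upward slope call (1) became 0 in all 26 arrays, in KA arrays only, with the 3′ minus 5′ covariates, without the 2 arrays farthest in CIDEA and without the 3 lowest. The downward call (1) became 0 in the same settings and after quantile normalization, without the genotype term, with the array number block, with XDH and without dim probe sets. Over single KK arrays left out the calls ranged from 0 to 1 and from 0 to 2. The share of slopes above 0 among the genes lower in both (86.1%) was 79.0% in 26 arrays, 80.1% with the array number block, 74.5% with the 3′ minus 5′ covariates, 76.8% without the 2 farthest, 79.0% without the 3 lowest, 90.6% with MUC1, 91.8% with PLIN2 and 32.2% with XDH. Among those higher (8.39%) it was 16.9% in 26 arrays, 18.6% with the covariates, 17.2% without the 2 farthest, 15.2% without the 3 lowest, 3.99% with PLIN2, 79.5% with XDH and 6.79% to 11.1% over single KK arrays left out. The cause of these shifts was not tested.

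No paired analysis was possible because each cow gave 1 array and the replicate numbers only follow the order of the samples. What the deposited values cannot give is the level of a gene, its signal over background or saturation.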

Other observations

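Of the 33 and 9 genes that stayed lower and higher in both after quantile normalization, 18 and 3 stood in none of the lists and are not described above. They are named here after their values were seen. RETREG1, a receptor for turnover of the endoplasmic reticulum, was -4.24 in AA 2 and -3.15 in AA 9, against -0.39, -0.03 and 0.23 in the 9 other AA glands, or 12.5-fold lower. FOLR3, a folate-binding protein, was -3.53 and -3.68, against -0.48, 0.01 and 1.12. GGT1, a gamma-glutamyltransferase of the cell surface, was -3.95 and -2.26, against -0.04, 0.18 and 0.76. RAB26, a small GTPase of regulated secretion, was -2.59 and -2.71, against -0.12, 0.04 and 0.60. Both glands lay below all 26 others in these 4 genes. SCNN1A, a subunit of the epithelial sodium channel, differed by -2.31, the potassium channel KCNK5 by -2.50, the vasopressin receptor gene AVPR2 by -2.41, SERINC2 by -3.37, MYBPC1 by -3.89 (-1.04 and -0.06 in its other probe sets) and the pyridoxal kinase PDXK by -3.23. The rest of the 18 were TMOD4, TMEM120B, SELENOM, RASSF4, TMEM171, CMTM8, PSPH and FGG. FGG, a fibrinogen chain gene outside the acute phase list used here, differed by -1.08 after quantile normalization.

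The 3 that lay higher were S100A1, a calcium-binding protein, at 3.24 in AA 2 and 3.01 in AA 9 against -0.20, 0.19 and 0.94 in the 9, PDGFRL, a relative of the PDGF receptors, at 2.93 and 2.74, and ISM1, a secreted protein, at 2.59 and 2.43. The KA gland KA 5, which had the highest SD besides the pair, shared some of the high values, with NEFM at 4.74, HP at 3.62 and S100A12 at 4.01, while its CIDEA value was -0.13.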
